A study of Mus musculus with 6 samples.

Results

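Cytochrome c oxidase, or complex IV, carries several small subunits that exist as paired isoforms from separate genes, and 9 such genes were followed here in the inguinal white adipose tissue (iWAT) of mice lacking the zinc transporter ZIP13. They were Cox4i1 and Cox4i2, Cox6a1 and Cox6a2, Cox7a2 and Cox7a1, Cox8a and Cox8b, which make up 4 pairs, and the related Cox7a2l. All probes whose array annotation is a RefSeq transcript of one of these genes were taken. That gave 12 probes for the 9 genes, of 15314 genes tested, and each of the 12 was well above background on all 6 arrays. The 6 RNA samples were 3 from iWAT of wild-type (WT) littermates and 3 from iWAT of Zip13-KO mice, on the C57BL/6J background. The Zip13-KO allele replaces exons 6 to 8 of the gene, also called Slc39a13, with a Neo cassette and is a germline allele. Both genotypes had been backcrossed for at least 7 generations and ate powdered food, and the mice were 10 weeks old. The sex of the mice and which of the diets named in the labels these mice ate are not given in the sources used here. The labels do not say that each sample came from a separate mouse, so the p-values measure only the spread between these samples.

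Complex IV is the last enzyme of the mitochondrial respiratory chain and passes electrons from cytochrome c to oxygen. Its catalytic core is encoded by mitochondrial DNA, and the nuclear subunits around it adjust its activity and stability. Cox4i1, Cox6a1, Cox7a2 and Cox8a are the ubiquitous (liver-type) isoforms. Cox6a2, Cox7a1 and Cox8b are the heart and muscle-type isoforms, and Cox7a1 and Cox8b are also well known from brown fat, where they serve as markers of thermogenic adipocytes. Cox4i2 is a lung-enriched isoform linked to oxygen sensing. Cox7a2l, also called SCAF1, joins complexes III and IV into supercomplexes, and C57BL/6 mice carry a short form of its protein.

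The targeted gene was low in the mutants. Slc39a13 gave a normalized log2 intensity of 11.29, 10.87 and 10.72 in WT and 6.76, 6.66 and 6.47 in the Zip13-KO arrays, a log2 fold change of -4.33 (SE 0.17, limma adjusted p = 0.00129). The 6 arrays shared 1 slide and 1 scan. Its column 1 carried WT and Zip13-KO replicate 1, and its column 2 carried the other Zip13-KO arrays, so position and genotype cannot be told apart for the arrays in column 2. Spots well above background made up 62.5%, 63.2% and 62.8% in WT and fewer in Zip13-KO, at 60.4%, 59.0% and 58.8%. Before normalization, the median processed signal was also lower in Zip13-KO, at 33.2 to 35.0 against 39.2 to 40.6 in WT. No spot was saturated. A gene was called when its adjusted p was under 0.05 and its change exceeded 1.5-fold, which is 0.58 on the log2 scale. By that rule Zip13-KO iWAT had 1576 genes higher (10.3%) and 1282 lower (8.37%).

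The promoters of the isoforms that moved most are shown first, beside those of their ubiquitous partners. RefSeq promoters (250 bases before to 50 after the annotated start, GRCm38.p6) were found for 6 of the 9 genes. None was found for Cox4i1, Cox4i2 or Cox6a2. The 4 windows printed here cover the COX7A and COX8 pairs. Capitals mark CpG dinucleotides. The Cox7a1 window lies at chr7:30183921-30184220, plus strand, the Cox7a2 window at chr9:79759804-79760103, minus strand, the Cox8b window at chr7:140900397-140900696, minus strand, and the Cox8a window at chr19:7217567-7217866, minus strand.
Cox7a1 promoter: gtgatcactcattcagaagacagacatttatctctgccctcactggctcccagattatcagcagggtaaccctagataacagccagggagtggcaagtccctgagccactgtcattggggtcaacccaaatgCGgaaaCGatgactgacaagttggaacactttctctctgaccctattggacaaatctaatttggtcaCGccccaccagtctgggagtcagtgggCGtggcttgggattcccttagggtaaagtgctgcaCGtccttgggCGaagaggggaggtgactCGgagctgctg
Cox7a2 promoter: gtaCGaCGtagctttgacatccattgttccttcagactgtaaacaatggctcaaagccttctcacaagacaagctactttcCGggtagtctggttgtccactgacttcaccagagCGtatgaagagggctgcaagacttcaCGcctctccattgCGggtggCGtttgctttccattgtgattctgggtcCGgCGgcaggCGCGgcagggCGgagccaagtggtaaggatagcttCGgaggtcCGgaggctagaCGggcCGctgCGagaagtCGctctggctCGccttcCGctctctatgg
Cox8b promoter: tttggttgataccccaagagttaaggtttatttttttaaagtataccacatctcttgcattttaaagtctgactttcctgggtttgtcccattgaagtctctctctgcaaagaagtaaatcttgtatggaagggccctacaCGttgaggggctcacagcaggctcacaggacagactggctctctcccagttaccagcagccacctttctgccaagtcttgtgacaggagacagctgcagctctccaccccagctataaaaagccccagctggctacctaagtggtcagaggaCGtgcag
Cox8a promoter: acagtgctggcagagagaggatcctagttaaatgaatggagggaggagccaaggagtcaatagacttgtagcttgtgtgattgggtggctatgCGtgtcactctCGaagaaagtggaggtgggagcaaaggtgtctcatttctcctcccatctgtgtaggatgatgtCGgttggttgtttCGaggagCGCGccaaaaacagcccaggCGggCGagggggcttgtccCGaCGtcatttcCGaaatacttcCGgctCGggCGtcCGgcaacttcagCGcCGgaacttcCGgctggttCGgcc

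The windows of Cox7a1 and Cox8b held fewer CpG dinucleotides than those of their ubiquitous partners. The other restricted isoforms, Cox4i2 and Cox6a2, had no window to compare. Cox8b had 2 CpG in its 300 bases and Cox7a1 had 7, against 19 in Cox8a and 20 in Cox7a2. Cox6a1 had 32 and Cox7a2l 19, and the median of 32851 mouse promoters was 7. In other words, 14.1% of all promoters held fewer CpG than Cox8b and 47.9% fewer than Cox7a1, while 71.9% held fewer than Cox8a and 73.5% fewer than Cox7a2. The GC content followed the same order within each pair, with 48.3% in Cox8b against 56.0% in Cox8a, and 53.0% in Cox7a1 against 56.7% in Cox7a2.

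A set of 6 short motifs were searched on both strands of the 6 windows. They were the nuclear receptor core AGGTCA (found in 16.3% of all promoters), the estrogen-related receptor element TCAAGGTCA (0.423%), which contains that core, the NRF1 core GCGCATGC (2.71%), the MEF2 element CTAAAAATA (0.517%), the cAMP response element TGACGTCA (1.79%) and the GABPA core CCGGAAGT (3.89%). NRF1 and GABPA are nuclear activators of many mitochondrial genes. The Cox6a1 window held the NRF1 core on both strands, in overlapping matches beginning at -162 and -160 from the start site. The Cox8a window held the GABPA core at -6 and at 31, both on the strand opposite to the one printed. These letters did not occur in the windows of Cox7a1, Cox7a2, Cox7a2l or Cox8b.

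Across the 9 isoform genes, 4 were called higher in Zip13-KO iWAT and 0 lower, beside 10.3% of all genes called higher. The 4 were Cox7a1, Cox8b, Cox4i1 and Cox7a2. Counting only the adjusted p, 6 of the 9 were past 0.05 and all 6 were higher, beside 19.3% of all genes. Every Zip13-KO array lay above every WT array for 6 genes (29.2% of all genes) and below it for 1 (25.9%). Counted by probe, 5 of the 12 were called higher, beside 8.33% of 33055 probes. In bulk tissue, a change in the number of cells of a type and a change in RNA per cell cannot be told apart.

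**Figure D1:**
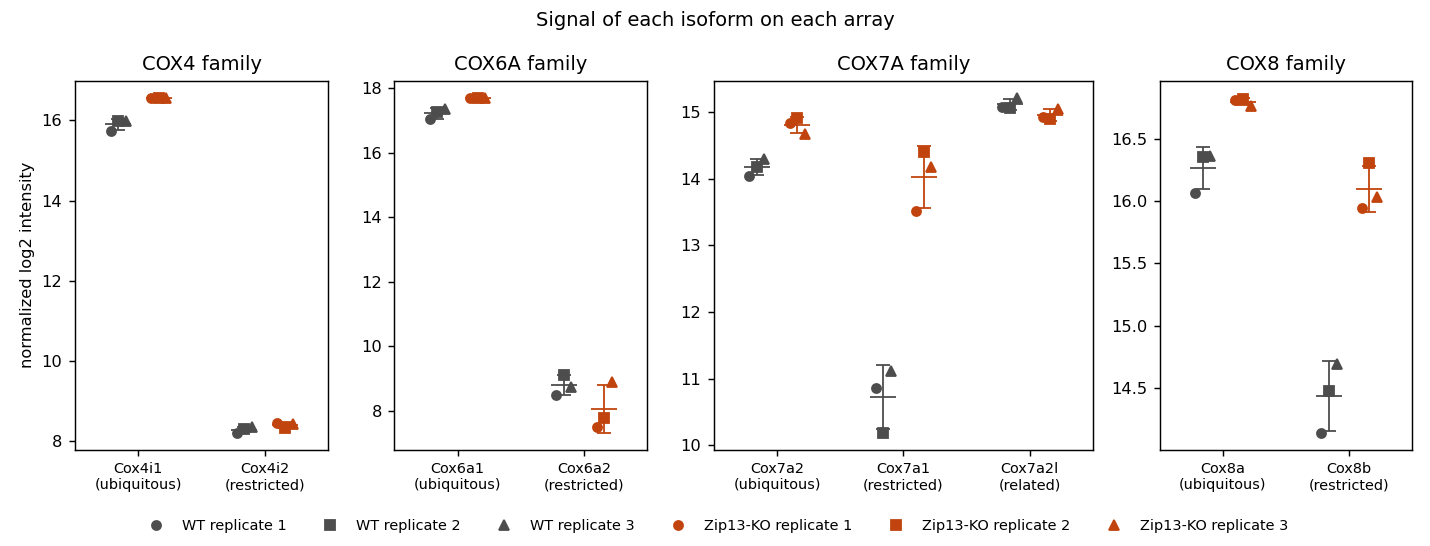
Normalized log2 intensity of each of the 9 isoform genes (y axis) on each of the 3 WT and 3 Zip13-KO arrays, in 1 panel for each family. Points are arrays, wide bars the mean and narrow bars the SD; heights of different genes come from different probes and are not comparable, and the reader should see Cox7a1 and Cox8b rise well clear of the WT arrays while Cox4i2 and Cox6a2 overlap.

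Cox7a1, the muscle and brown fat isoform of subunit VIIa, rose most. On the log2 scale the WT arrays read 10.87, 10.19 and 11.11 and the mutants 13.51, 14.40 and 14.18. The lowest Zip13-KO array was above the highest WT array by more than the whole range of the WT group. The change was 9.92-fold (log2 fold change 3.31, SE 0.32, 95% interval 2.54 to 4.08, limma adjusted p = 0.00445).

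Cox8b, the muscle and brown fat isoform of subunit VIII, rose next. Its WT arrays read 14.14, 14.47 and 14.69 (log2) and its mutant arrays 15.95, 16.31 and 16.04, with no overlap. The change was 3.17-fold (log2 fold change 1.67, SE 0.17, 95% interval 1.26 to 2.08, limma adjusted p = 0.00460). Within column 1 of the slide, where Zip13-KO replicate 1 alone stands against the WT arrays, the change was 2.79 for Cox7a1 and 1.52 for Cox8b, each with an adjusted p of 0.0579 by limma; genome-wide, that fit called 0 genes higher and 7 lower.

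Cox4i1, the main form of the subunit that binds ATP and tunes the enzyme, was called at a smaller size. Log2 signals of 15.74, 15.99 and 15.98 in WT stood against 16.56, 16.56 and 16.55 in Zip13-KO. All Zip13-KO arrays were higher, by 1.58-fold (log2 fold change 0.66, SE 0.09, limma adjusted p = 0.00690). Without WT replicate 1, the lowest WT array, the change was 0.577, just under the threshold.

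Cox7a2, the ubiquitous form of subunit VIIa, was called at a like size. The signal (log2) was 14.05, 14.18 and 14.30 in WT, against 14.84, 14.91 and 14.68 in the mutants, again without overlap. The change was 1.55-fold (log2 fold change 0.63, SE 0.10, limma adjusted p = 0.00917). It was 0.563 without WT replicate 1 and 0.564 in the table of normalized values that the authors deposited, both under the fold threshold.

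Cox8a, the ubiquitous form of subunit VIII, and Cox6a1, the ubiquitous form of subunit VIa, were past the adjusted p but not the fold threshold. Cox8a gave 16.07, 16.36 and 16.37 in WT and 16.82, 16.82 and 16.77 in the Zip13-KO arrays. Its groups did not overlap, and its log2 fold change was 0.54 (SE 0.10, limma adjusted p = 0.0132). A second Cox8a probe changed by 0.66 and was called in the fit over all probes (limma adjusted p = 0.0153).

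Cox6a1 gave 17.04, 17.25 and 17.36 in WT and 17.70 in each of the 3 Zip13-KO arrays, a log2 fold change of 0.48 (SE 0.10, limma adjusted p = 0.0156). The equal Zip13-KO values come from the normalization. The Cox6a1 probe ranked 39, 23 and 15 among all 55681 probes in the WT arrays and 2 in every Zip13-KO array, and quantile normalization gives the same value to the same rank. When each array was instead scaled to its 75th percentile, Cox6a1 gave 17.08, 17.13 and 17.23 in WT and 17.83, 17.92 and 17.79 in Zip13-KO. The log2 fold change was then 0.70 (SE 0.08, limma adjusted p = 0.00478) and past both thresholds. Cox8a was also past both under this scaling, at 0.64, so that 6 of the 9 genes were called higher. Of all 15314 genes, this scaling called 1768 higher, where quantile normalization called 1576.

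Cox4i2, the oxygen-linked isoform of subunit IV, did not pass the test. WT replicates read 8.21, 8.31 and 8.35 and Zip13-KO replicates 8.45, 8.33 and 8.43 on the log2 scale, and the groups overlapped. The difference was 0.12 (SE 0.08, 95% interval -0.07 to 0.31, limma adjusted p = 0.284), so a change of more than 0.31 on the log2 scale lies outside its interval.

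Cox7a2l, the supercomplex factor, also did not pass. As log2 values, WT gave 15.09, 15.06 and 15.22 and Zip13-KO 14.92, 14.90 and 15.06. The highest Zip13-KO value (15.056) lay just below the lowest WT value (15.061), with a difference of -0.16 (SE 0.08, 95% interval -0.37 to 0.04, limma adjusted p = 0.178). Its 3 probes gave -0.14, -0.16 and -0.17. Under the 75th percentile scaling the difference was -0.02 and the groups overlapped.

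Cox6a2, the muscle isoform of subunit VIa, was the one heart-type gene whose mean was lower in Zip13-KO. Its log2 signal read 8.51, 9.12 and 8.75 for WT, then 7.51, 7.79 and 8.91 for Zip13-KO. Zip13-KO replicates 1 and 2 were below every WT array, and replicate 3 was inside the WT range. The difference was -0.73 (SE 0.38, 95% interval -1.65 to 0.20, limma adjusted p = 0.179). Without Zip13-KO replicate 3 it was -1.14 (limma adjusted p = 0.0283) and was called lower.

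Since the heart-type isoforms are also muscle genes, muscle markers were read beside them. Of 29 skeletal muscle markers, 26 could be tested. Of these, 1 was called higher (Myl1, 1.01) and 1 lower (Tnnt1, -0.69), beside 10.3% and 8.37% of all genes. In all, 18 were above the WT mean, and the median change was 0.47. The highest was the myoglobin gene Mb at 2.37 (SE 0.83), not called. Its signal was low, at 1.35, 3.38 and 3.82 (log2) in WT and 4.01, 5.24 and 6.41 in Zip13-KO. Myh1, Tnni1 and Casq1 were not well above background. The summed intensity of the 26 tested markers was 11428 to 15828 in WT and 15443 to 26244 in Zip13-KO, which overlap. Myl1, the most abundant of the list, weighs most in these sums. It read 11.33, 12.27 and 12.26 in WT and 12.92, 12.96 and 13.01 in Zip13-KO. Ckm, the muscle creatine kinase, gave 5.94, 3.99 and 6.38 in WT and 5.51, 6.25 and 7.99 in Zip13-KO. Zip13-KO replicate 3 had the highest muscle sum and also the highest Cox6a2 of its group. In WT the 2 did not go together: replicate 2 had the highest Cox6a2 (9.12) and replicate 3 the highest muscle sum (15828). Zip13-KO replicate 1, with 15443, lay inside the WT range of the muscle sum, and its Cox7a1 and Cox8b were above every WT array. These are single arrays, and the part of muscle RNA in the changes of any isoform was not tested.

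The counts for the next lists stand beside 10.3% of all genes called higher and 8.37% called lower. Of 20 brown and beige adipocyte markers, 13 were called higher and 0 lower, with 18 above the WT mean and 2 below it. Those 2 were Cited1 (-1.31) and Tmem26 (-0.93), neither called. Also not called were Ebf2 (0.45), Lhx8 (0.30), Zic1 (0.29), Tnfrsf9 (0.28) and Tbx1 (0.15). The summed intensity of the list was 28441 to 45422 in WT and 114953 to 186585 in Zip13-KO. Ucp1, the uncoupling protein of thermogenic fat, changed by 5.16 on the log2 scale (limma adjusted p = 0.00884). General adipocyte markers were above the WT mean in 14 of 14 cases with a median change of 0.65, and 4 of them were called higher. Their sums were 816788 to 1107810 in WT and 1277670 to 1330600 in Zip13-KO. Of 10 macrophage markers, 8 were called lower, with sums of 81679 to 133674 in WT and 39007 to 50985 in Zip13-KO. The median changes were 0.47 over 12 mural cell markers, of which 4 were called higher, 0.44 over 10 endothelial markers, of which 3 were called higher, and 0.01 over 6 tested mammary epithelium markers, of which 0 were called. The part of any of these cell types in the isoform changes was not tested.

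Cox6a2 is also known from plasmacytoid dendritic cells, and iWAT can hold a lymph node. All 10 lymph node markers were below the WT mean, with a median difference of -0.45 and 0 called, and their sums were 84298 to 100117 in WT and 60400 to 68096 in Zip13-KO. Of 9 plasmacytoid dendritic cell markers tested, a list added after the Cox6a2 values were known, 9 were below the WT mean. The median difference was -0.50, and 3 were called lower (Runx2 -1.58, Bst2 -0.97 and Irf8 -0.87), beside 8.37% of all genes. Runx2 was the faintest of the list, at 4.59, 4.36 and 3.87 (log2) in WT and 2.79, 2.10 and 3.21 in Zip13-KO. Siglech, a defining marker of these cells and the least changed of the list, gave 14.97, 15.03 and 14.93 in WT and 14.97, 14.95 and 14.91 in Zip13-KO, a difference of -0.03. The sums of that list were 71029 to 76855 in WT and 58309 to 58744 in Zip13-KO. Zip13-KO replicate 3, whose Cox6a2 was within the WT range, was below the WT arrays in both sums. The part of these cells in the Cox6a2 values was not tested.

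**Figure D2:**
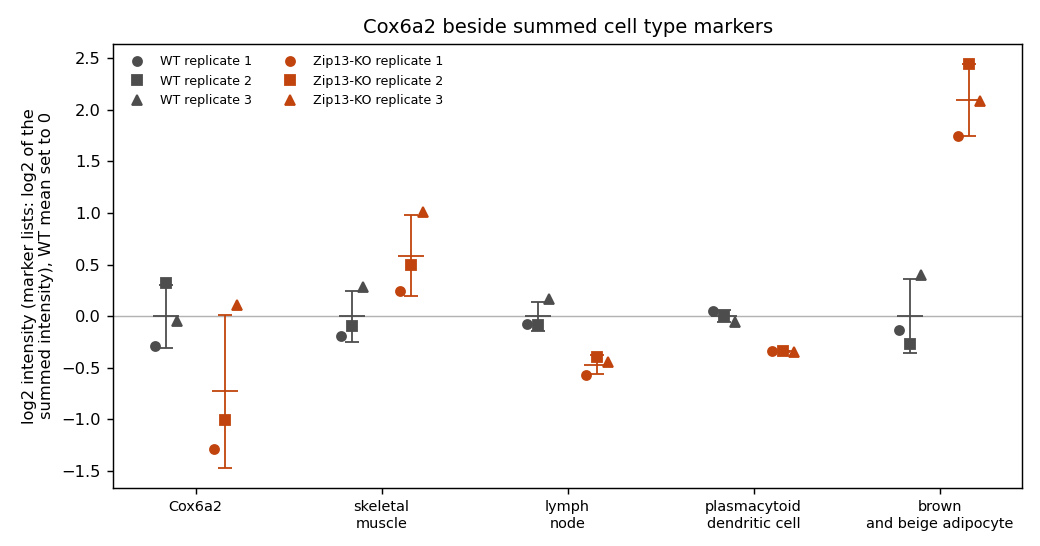
Cox6a2 (log2 intensity) and the log2 of the summed intensity of 4 marker lists (y axis, WT mean set to 0) on each array; points are arrays, wide bars the mean and narrow bars the SD. Zip13-KO replicate 3 has the highest Cox6a2 and the highest muscle sum of its group, while its lymph node and plasmacytoid dendritic cell sums lie with those of the other Zip13-KO arrays. Among the WT arrays, replicate 2 has the highest Cox6a2 and replicate 3 the highest muscle sum.

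Whether the members of a pair moved unequally was asked within each array, as the log2 difference restricted minus ubiquitous isoform, set to 0 at the WT mean. Such a ratio shows unequal change and does not say which member changed. In the COX7A pair, Cox7a1 minus Cox7a2 was 0.27, -0.54 and 0.27 in WT and 2.13, 2.94 and 2.96 in Zip13-KO. The ratio was 6.39-fold higher in Zip13-KO (difference 2.68, SE 0.38). In the COX8 pair, Cox8b minus Cox8a was -0.10, -0.05 and 0.15 in WT and 0.96, 1.32 and 1.1 in Zip13-KO, a 2.18-fold higher ratio (difference 1.13, SE 0.13).

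The other pairs moved toward the ubiquitous member. In the COX4 pair, Cox4i2 minus Cox4i1 was 0.08, -0.06 and -0.02 in WT and -0.50, -0.62 and -0.51 in Zip13-KO, a difference of -0.54 (SE 0.06). In the COX6A pair, Cox6a2 minus Cox6a1 was -0.11, 0.30 and -0.19 in WT and -1.77, -1.49 and -0.37 in Zip13-KO, a difference of -1.21 (SE 0.45). The genotypes did not overlap in any of the 4 pairs. The two-sided exact permutation test gave p = 0.1 for each, also after adjustment over the 4, which is the smallest p that 3 against 3 arrays allow. Cox7a2l minus Cox7a2 was lower in every Zip13-KO array as well, by -0.80 on the log2 scale (SE 0.13, exact permutation p = 0.1).

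**Figure D3:**
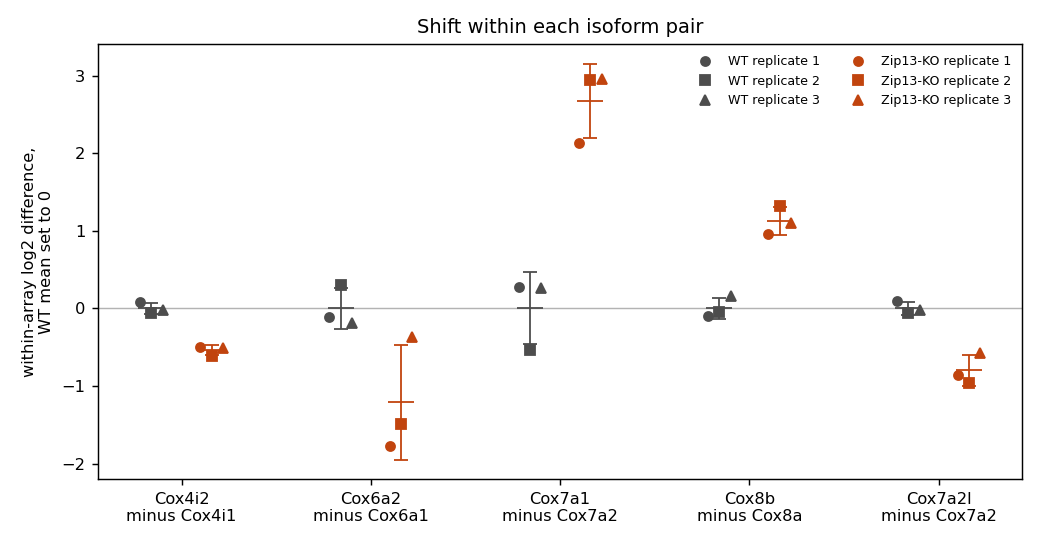
Within-array log2 difference of the members of each pair, and of Cox7a2l minus Cox7a2 (y axis, WT mean set to 0), on the 3 WT and 3 Zip13-KO arrays. Points are arrays, wide bars the mean and narrow bars the SD; the COX7A and COX8 differences are positive in all 3 Zip13-KO arrays and the other 3 are negative.

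Of 14 other complex IV subunits, 9 could be tested. The mitochondrially encoded COX1, COX2 and COX3 had no named probe, and Cox7b2 and Cox8c were not well above background. Of the 9, 7 were called higher, beside 10.3% of all genes, and 0 lower (Cox6b2 and Ndufa4l2 did not pass). The median change was 0.68 against 0.00 over all genes tested. The 9 ranged from Cox6b2, a testis form, at 0.16 (not called) to Ndufa4, a peripheral subunit, at 0.79. Cox5a gave 15.06, 15.29 and 15.32 in WT and 16.02, 16.06 and 15.93 in Zip13-KO, a log2 fold change of 0.78 (SE 0.10, limma adjusted p = 0.00597). Cox5b, the zinc-binding subunit, changed by 0.77, Cox6b1 by 0.72, Cox7c by 0.68, Cox7b by 0.67 and Cox6c by 0.63. Ndufa4l2, a hypoxia-linked relative of Ndufa4, differed by 0.47 (SE 0.37) and was not called.

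Of 26 genes that assemble complex IV or bring copper to it, 23 could be tested. Of these, 6 were called higher, beside 10.3% of all genes, and 0 lower, with a median change of 0.45. The called genes were Cox19 (1.0), a copper-handling protein of the intermembrane space, Tmem177 (0.80), Taco1 (0.72), which activates translation of a mitochondrially encoded subunit, Cox11 (0.72), which delivers copper, Cox15 (0.66), which makes heme A, and Coa5 (0.62). The lowest was the assembly factor Coa4 at -0.22, not called. A further 13 were past the adjusted p with a smaller change, so that 19 of the 23 passed without the fold threshold.

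**Figure D4:**
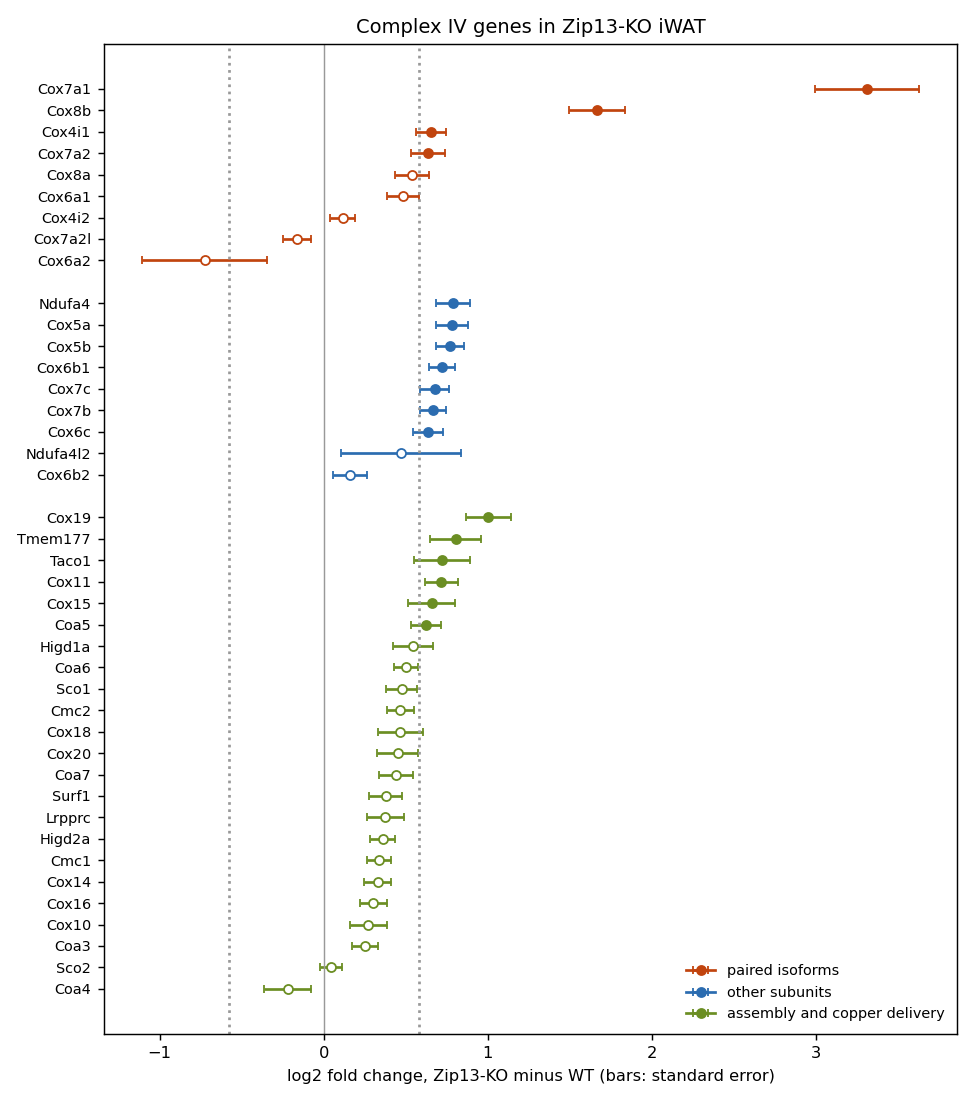
Log2 fold change of Zip13-KO minus WT (x axis) for the 9 paired isoform genes, 9 other complex IV subunits and 23 assembly genes; bars are standard errors, filled points are called genes, the solid line is the median of all genes and dotted lines mark the fold threshold. The ubiquitous isoforms lie between 0.48 and 0.66, near the other subunits, and Cox7a1 and Cox8b lie far to the right of them.

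To set each isoform against the complex it joins, its within-array difference from the mean of the 9 other subunits tested was taken, a comparison added after the first results were seen and given without a test. That mean itself changed by 0.63. Against it, Cox4i1 differed by 0.03, Cox7a2 by 0.01, Cox8a by -0.09 and Cox6a1 by -0.15, and for these ubiquitous isoforms the genotypes overlapped. Cox7a1 was 2.68 and Cox8b 1.04 higher relative to these subunits, while Cox4i2 was -0.51, Cox7a2l -0.79 and Cox6a2 -1.36 relative to them, each without overlap. Of the 9, Ndufa4l2 varied most in WT, at 10.05, 8.97 and 8.60 (SD 0.76). When Cox6b2 and Ndufa4l2 were left out, the reference held the 7 subunits that were called higher, a choice made with their calls known. Its mean changed by 0.72, and the differences were -0.18 for Cox8a and -0.24 for Cox6a1, with no overlap between genotypes. Those 2 differences depended on the reference, and their size on the processing. With the 7 subunits, 15 other settings gave -0.270 to -0.154 for Cox6a1 and -0.220 to -0.119 for Cox8a. The smallest came under the 75th percentile scaling for Cox6a1 and with the mean of a gene's probes for Cox8a.

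The genes whose pattern over the 6 arrays was most like that of a called isoform were found by the root mean square (RMS) difference of log2 values, each taken from its own WT mean. Nearest to Cox7a1 were Cpt1b, the muscle and brown fat carnitine palmitoyltransferase (RMS 0.193, log2 fold change 3.56), Fbp2, a muscle fructose bisphosphatase (0.350, 3.17), and Acot11, an acyl-CoA thioesterase (0.471, 2.69). Nearest to Cox8b were the membrane protein gene Cmtm4 (RMS 0.111), Gpd2, the mitochondrial glycerol phosphate dehydrogenase (0.120), and Echdc1, an ethylmalonyl-CoA decarboxylase (0.154). Nearest to Cox7a2 were Mtfr1, Nmnat1 and the subunit gene Cox6c (RMS 0.0262, 0.0266 and 0.0308), and nearest to Cox4i1 were Acbd5, Agbl3 and Ganc (0.0197, 0.0238 and 0.0248).

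**Figure D5:**
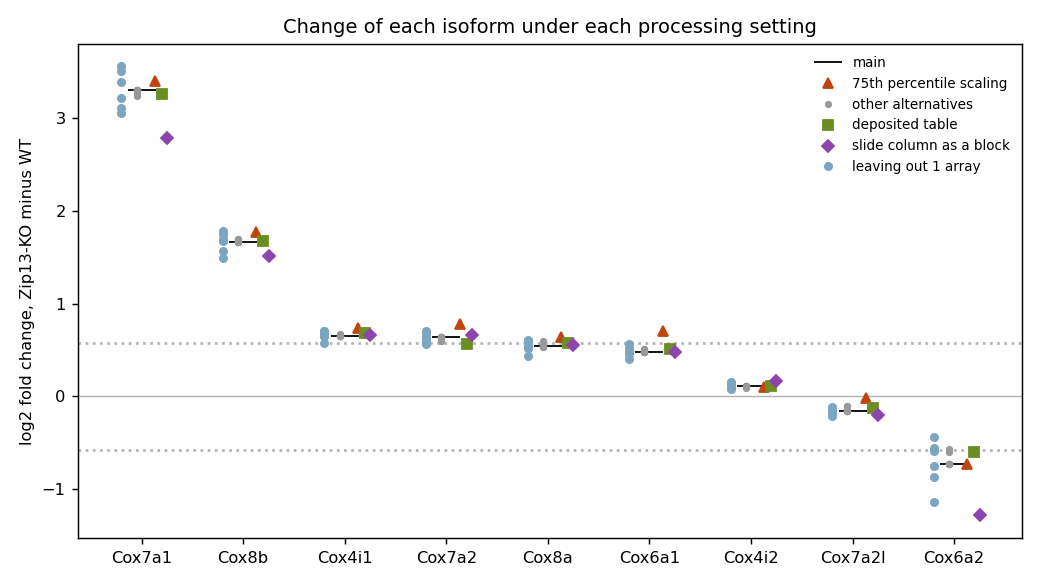
Log2 fold change of each isoform gene (y axis) as first computed (black line) and under each other processing setting (points, by kind of setting); dotted lines mark the fold threshold. Cox7a1 and Cox8b stay above it in every setting, the 4 ubiquitous genes lie close to it, and Cox6a2 is spread from -1.29 to -0.44.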

How the data were processed

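RNA of 3 WT and 3 Zip13-KO iWAT samples was hybridized to Agilent 1-colour mouse arrays. The authors deposited the scanner output of Feature Extraction 11.5.1.1, in which the processed signal is an intensity already corrected for background, and a table of log2 values that the authors quantile normalized. The deposited table matched the median signal, without background correction, by rank. Spot flags came with the deposited intensity values.

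Control spots (of 62976 spots, 59305 were not controls) and outlier spots were left out, the processed signal was taken as log2, spots of a probe were averaged and arrays quantile normalized. Probes well above background on all 3 arrays of a genotype were kept. The array design was annotated on mm9; symbols and promoters came from RefSeq on GRCm38.p6, and 28331 of 55681 probes were named. The brightest kept probe stood for a gene. Genotypes were compared with limma 3.58.1 (lmFit, eBayes) in R 4.3.3, with Benjamini-Hochberg adjustment over 15314 genes; the steps were tested on simulated data. Pairs were compared by exact permutation.

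The isoform genes and gene lists were chosen with earlier results of these data known. Named genes were the isoforms, called and extreme complex IV genes, the 3 nearest genes in pattern of each called isoform, and the targeted gene; the other markers named were chosen after their values were seen. Alternatives were 75th percentile scaling, normexp (offset 50) or no background correction (both on the median signal, since the files hold no mean signal), the deposited table, other filters and thresholds, the mean of a gene's probes, a trended robust prior, the methods' t-test, replicate and slide-column blocks, and leaving out each array. The number of arrays limits the precision.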

Additional observations from a re-analysis of the deposited data

How the results depend on the processing

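Under the 75th percentile scaling, normexp, no background correction, the deposited table, the other filters, thresholds and priors, the replicate block and the omission of each array, every isoform gene kept the sign of its log2 fold change. With the column of the slide as a block, 0 isoform genes, 0 of their probes, 0 other subunits and 0 assembly genes were called, where Zip13-KO replicate 1 alone carries the comparison; the COX6A difference was then -1.77, the COX7A difference 2.13 and the COX8 difference 0.96. The 75th percentile scaling gave a COX4 difference of -0.64. At an adjusted p under 0.01, 3 isoform probes and 3 assembly genes were called; with no fold threshold, 19 assembly genes were.

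Leaving out 1 array at a time, the isoform genes called higher numbered 2 to 5 and those called lower 0 to 1, their probes 2 to 6 higher and 0 to 1 lower, and the assembly genes 3 to 7. The lowest of these counts came without WT replicate 1 (2 genes, 2 probes, 3 assembly genes). Without Zip13-KO replicate 1 or 2, 3 probes and 3 assembly genes were called. The call lower came without Zip13-KO replicate 3 (Cox6a2). Among all genes, these runs called 950 to 1670 higher and 762 to 1476 lower, with 1244 higher without WT replicate 1. The labels number the replicates alike in both genotypes, but same-numbered arrays did not deviate together (correlations -0.02, 0.04 and -0.08). With the replicate block, 4 isoform genes were called higher, beside 1279 genes higher and 1052 lower in all.

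Relative to the 9 other subunits, the small differences of 2 ubiquitous isoforms changed sign: Cox7a2 was at -0.0216 with normexp, -0.0236 without background correction and -0.0492 in the deposited table, and leaving out 1 array gave -0.0719 to 0.0722 for Cox7a2 and -0.0581 to 0.0821 for Cox4i1, lowest without WT replicate 1 in both.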
